A study of Homo sapiens with 6 samples.

Results

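The genes described here are 44 interferon-stimulated and RNA-sensing genes in MHCC97H, a human hepatocellular carcinoma line of high metastatic potential, with and without knockout of the RNA helicase DDX17. They were chosen by symbol from a fixed list, and each of the 44 was found among the 58302 rows of the deposited gene table. Total RNA was sequenced in 6 libraries. The 3 libraries of the control group came from a line that carried a non-target CRISPR/Cas9 control, and the 3 libraries of the DDX17 KO group came from a line knocked out for DDX17 by the same system. No other treatment is named, so neither group was given interferon or viral RNA as far as the labels say. The labels do not say whether a line was 1 clone or a pool, nor whether the libraries of a group came from separate cultures, so each p-value measures only the spread between these libraries.

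Cells detect viral or misplaced double-stranded RNA with the helicases RIG-I (gene DDX58) and MDA5 (IFIH1), which signal through the mitochondrial adaptor MAVS to the kinases TBK1 and IKBKE and the factors IRF3 and IRF7. Secreted interferon then acts through its receptors, JAK1, TYK2 and a complex that holds STAT2 and IRF9 (ISGF3), which binds the interferon-stimulated response element, or ISRE, in the promoters of target genes. The products of those genes bind, degrade or edit RNA, block membrane fusion or tag proteins with ISG15. Several, among them the IFIT genes, can also be switched on by IRF3 directly.

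Levels are given as FPKM, fragments scaled to transcript length and library depth, so they can be compared between genes. Of the 44 genes, 29 reached an average of 0.5 FPKM across all libraries and were tested by limma on log2(FPKM + 1) together with every other gene that did, 15620 in all. The other 15 lay below it. Levels among the tested members ran from IFIH1, at a mean of 0.521 FPKM just inside the filter, to BST2, at 204 FPKM. There were 11 tested members under 2 FPKM and 4 over 10 FPKM. PARP14 and HERC6 lay just outside, at means of 0.477 and 0.469 FPKM. For 3 of the tested members, DDX58, IFIH1 and IFI44, the control mean was itself under 0.5 FPKM, so they entered the test through their level in the knockout libraries.

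The ISRE core was not itself used to choose the genes. The list is of interferon-stimulated genes, which ISGF3 binds through the ISRE, so a high share of promoters with the core could be foreseen. It was searched as GAAANNGAAA on both strands, overlapping matches counted, in windows from 250 bases before to 50 after the first RefSeq start listed for each gene (GRCh38.p14). A window was found for 35 of the 44 members, with DDX58 under its present symbol RIGI. The core was in 21 of these 35 windows, or 60.0%, against 3.65% of 27305 genes in the RefSeq table. Among members tested by limma it was in 15 of 24 windows, 62.5%, against 2.43% of 8671 windows of all genes tested. With every listed start counted, the numbers were 23 of 35 members, 65.7%, and 4.38% of all genes. A match is a run of letters and not a measured binding site. The last 200 bases before the start are shown for 4 members that stood highest in the knockout libraries or kept their size after correction for base composition, IFIT3 (chr10:89327797-89327996, plus strand), DDX60 (chr4:168318753-168318952, minus strand), IFI44 (chr1:78649589-78649788, plus strand) and ISG15 (chr1:1013297-1013496, plus strand), and for IFITM3, the member that stood lowest (chr11:320861-321060, minus strand). Each is written 5′ to 3′ on the strand of its gene, with matches to the core, read on either strand, in capitals.
IFIT3: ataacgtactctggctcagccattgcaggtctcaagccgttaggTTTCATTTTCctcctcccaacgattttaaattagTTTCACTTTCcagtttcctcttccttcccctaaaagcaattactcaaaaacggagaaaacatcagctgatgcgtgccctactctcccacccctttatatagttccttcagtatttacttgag
DDX60: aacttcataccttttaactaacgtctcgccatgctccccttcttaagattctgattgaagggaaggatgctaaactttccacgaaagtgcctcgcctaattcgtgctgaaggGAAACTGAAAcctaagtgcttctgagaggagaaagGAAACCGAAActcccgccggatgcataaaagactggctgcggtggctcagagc
IFI44: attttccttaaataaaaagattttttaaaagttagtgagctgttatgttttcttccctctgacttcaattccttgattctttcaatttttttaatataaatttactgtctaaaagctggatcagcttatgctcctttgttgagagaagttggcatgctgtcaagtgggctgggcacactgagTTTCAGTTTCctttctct
ISG15: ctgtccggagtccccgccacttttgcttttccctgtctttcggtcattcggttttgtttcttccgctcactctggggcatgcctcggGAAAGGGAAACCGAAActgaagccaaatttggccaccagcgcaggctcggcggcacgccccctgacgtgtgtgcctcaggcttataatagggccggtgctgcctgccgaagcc
IFITM3: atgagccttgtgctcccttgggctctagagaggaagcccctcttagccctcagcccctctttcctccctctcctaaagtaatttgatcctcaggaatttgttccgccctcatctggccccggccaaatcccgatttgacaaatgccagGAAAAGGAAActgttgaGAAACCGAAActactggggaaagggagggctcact
IFIT3, DDX60, ISG15 and IFITM3 each held 2 matches, and in ISG15 the pair overlapped. IFI44 held 1 match, 18 bases before the start. The 2 matches of IFITM3 began 52 and 35 bases before its start, so the promoter with the lowest fold change held the same core as those with the highest. Among tested members with a window, the core was in 12 of 15 whose estimate was above 0 and in 3 of 9 whose estimate was below 0. Those 15 hold DDX58, IFIH1 and IFI44, which entered the test through their level in the knockout libraries. The sign of the estimates also followed transcript GC content, and the same split was not counted over all genes. A link between the core and the direction of change was not tested. DDX58 had no match in its window, which says only that these letters are not in that stretch.

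With all 6 libraries, no member passed the adjusted threshold of 0.05 in either direction. Of all genes tested, 6 passed (0.0384%), and these were lower. By unadjusted p under 0.05, 5 members were higher in DDX17 KO (IFIT3, DDX60, IFI44, OASL and DDX58), where 6.31% of all genes met that mark, and 1 member was lower (IFITM3), where 7.19% did. IFI44 and DDX58 passed the level filter only through their knockout libraries. Their direction was in part set by the filter, in this count and in those below that hold them. The 29 tested members had a median log2 fold change of 0.17, DDX17 KO minus control, against -0.03 over all genes tested. That median was 0.07 after GC and length correction, -0.05 among members with a mean of at least 2 FPKM, and between 0.06 (without DDX17 KO replicate 3) and 0.24 (without DDX17 KO replicate 2) as each library was left out. The estimate was above 0 for 17 of 29 members, 58.6%, and for 47.5% of all genes. Every DDX17 KO library lay above every control for 4 members, IFIT3, DDX60, IFI44 and OASL, and such a separation was found for 8.09% of all genes. Every DDX17 KO library lay below every control for 2 members, IFITM3 and IRF9, against 12.6% of all genes. Levels in the plot of FPKM by library show the 2 groups interleaved for the other 23 genes. In bulk RNA, fewer cells with a transcript and less of it per cell cannot be told apart.

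**Figure D1:**
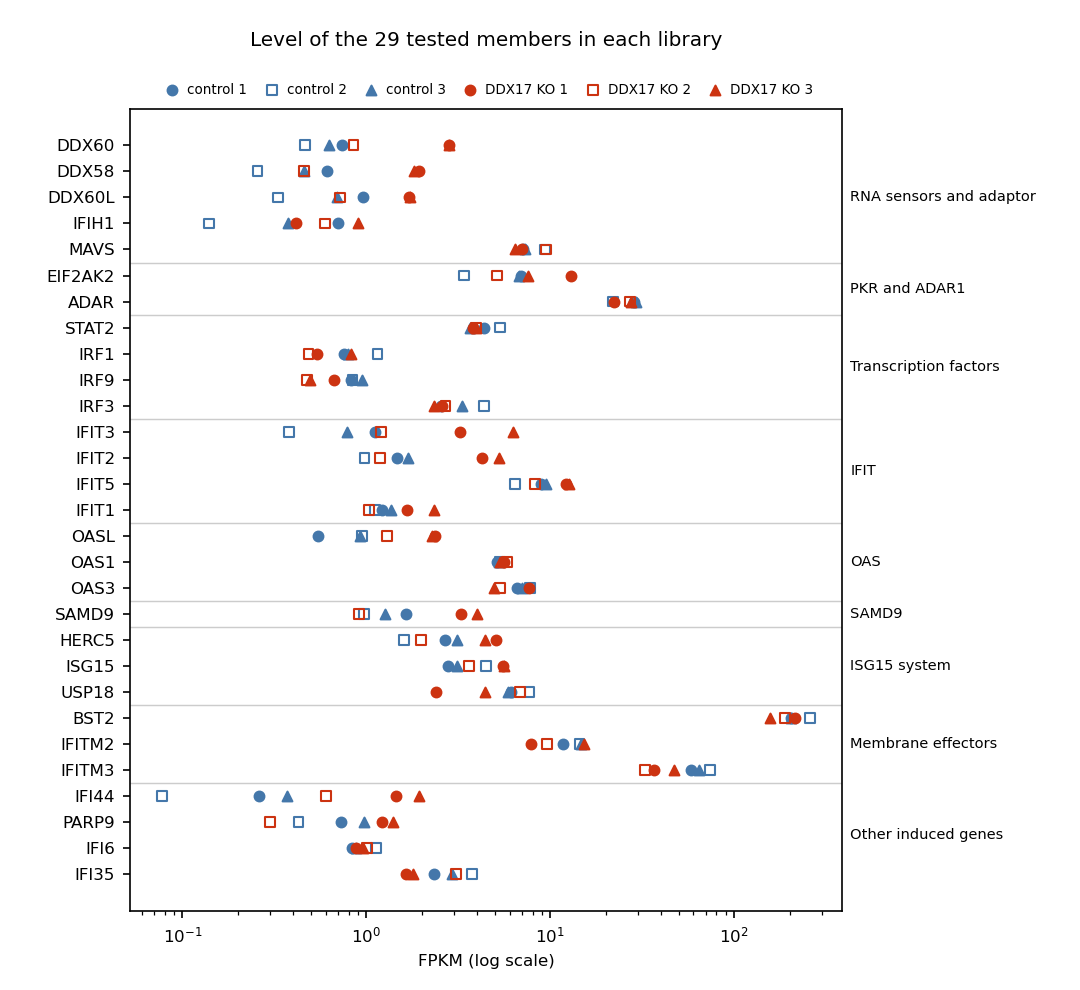
FPKM on a log axis of the 29 tested members, grouped by role, with 1 point per library (blue, control; red, DDX17 KO; open squares, the libraries numbered 2). In most rows of the sensor, IFIT, SAMD9 and HERC5 genes the red circle and triangle lie to the right of all blue points while the red open square lies among or near them, as for IFIT2 at 4.23 and 5.23 FPKM against 1.19.

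The targeted gene and the libraries set how these values can be read. DDX17 was at 45.7, 41.4 and 43.9 FPKM in the controls and 22.4, 7.64 and 19.1 FPKM in DDX17 KO, so its mRNA was lower in every knockout library and absent in none. It differed on the log2 scale by -1.48 (standard error 0.36), limma adjusted p = 0.282, and the two-sided exact permutation test over 20 arrangements gave p = 0.1, the smallest it allows. Estimated depth was 12340000 to 14590000 fragments per control library and 5350000 to 10600000 per DDX17 KO library, lowest in DDX17 KO replicate 2. The libraries numbered 2 stood apart in both groups. Across 15564 genes the deviation from the group mean was higher at higher transcript GC content in control replicate 2 and DDX17 KO replicate 2 (Spearman 0.584 and 0.533) and went the other way in the other 4 libraries (-0.534 to -0.32). Keratins KRT8 and KRT18 and vimentin were at 73.6 FPKM or more in every library, while the hepatocyte genes AFP, ALB, APOA1 and TTR were listed at 0 in all DDX17 KO libraries and at most 0.365 FPKM in controls, so the defining liver markers were near absent. The epithelial marker EPCAM and the hepatoma marker GPC3 were also near absent, at most 0.128 and 0.0745 FPKM in any library.

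DDX17 KO replicate 2 lay nearer to the controls than the other 2 knockout libraries for many members. In DDX17 KO replicates 1 and 3 the level was above every control, and in replicate 2 it was not, for 10 of the 29 members, a pattern met by 20.1% of all genes. Replicates 1 and 3 were below every control, and replicate 2 was not, for 3 members. Of all 15620 genes, 3125 met that pattern and 3142 met the higher one. Whatever replicate 2, replicates 1 and 3 were below every control for 5 members and 32.6% of all genes, a wider count than that given for the higher direction. With DDX17 KO replicate 2 left out, 7 members passed the limma adjusted threshold as higher, DDX58, OASL, DDX60, IFIT3, IFI44, SAMD9 and IFIT2, and none as lower. DDX58 and IFI44 had entered the test only through their level in the knockout libraries. Of all genes, 304 (1.95%) were then called higher and 268 (1.72%) lower. With both libraries numbered 2 left out, 7 members were again called higher, with ISG15 in place of IFIT3, and none lower, against 5.51% and 3.30% of all genes. Over the alternatives run, the limma adjusted p of these 8 members went from 0.0264 at the lowest (DDX60) to 0.821 at the highest (SAMD9). DDX17 KO replicate 2 is also the library with the least DDX17 mRNA and the lowest depth. With it left out, the Pearson correlation of transcript GC content with log2 fold change over all genes was -0.54, against -0.45 with all libraries. All of the 7 but OASL had under 45% GC. The median of all such genes was 0.32 with it left out and 0.22 with all libraries. The part of DDX17 mRNA, depth or GC content in the calls without DDX17 KO replicate 2 was not tested. Of the 7 members called without it, 5 had a promoter window and 4 of those held the ISRE core (IFIT3, IFI44, DDX60 and SAMD9), as did 11 of the 19 tested members with a window that were not called and 6 of the 150 genes with a window called higher there. Those 6 include the same 4 members, so the 150 are not a separate group.

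**Figure D2:**
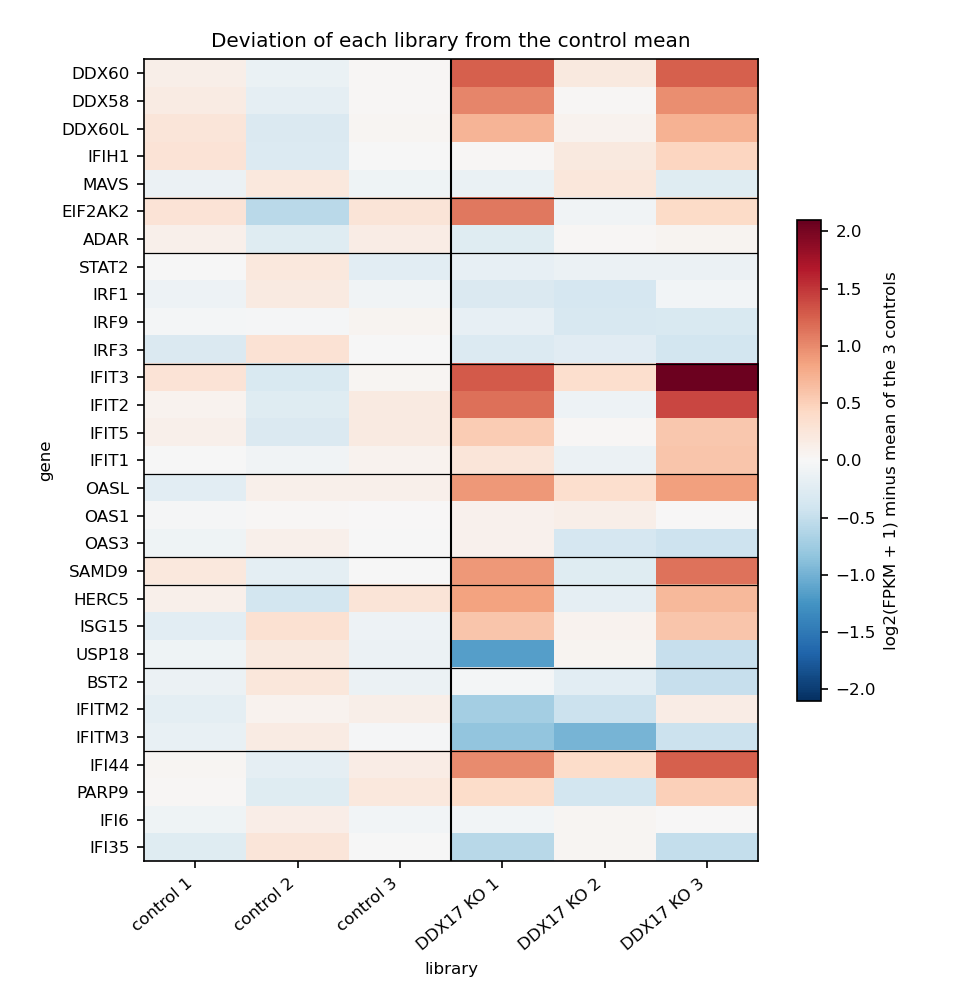
Log2(FPKM + 1) of each tested member in each library minus the mean of the 3 controls, red above and blue below, with rows grouped by role. DDX17 KO replicates 1 and 3 are red for IFIT2, IFIT3, DDX58, DDX60, OASL, SAMD9 and IFI44, while DDX17 KO replicate 2 is pale in the same rows and IFITM3 is blue in all 3 knockout libraries.

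Of the RNA sensors, RIG-I and the DDX60 pair were higher in DDX17 KO replicates 1 and 3, MDA5 and LGP2 were at low levels, and the estimate for the adaptor MAVS was near 0. DDX58 (chr9:32455705-32526324, minus strand, hg38) was at 0.612, 0.256 and 0.458 FPKM in controls, and at 1.92, 0.457 and 1.81 FPKM in DDX17 KO. Replicates 1 and 3 stood above all controls and replicate 2 inside their range, and the difference on the log2 scale was 0.67 (standard error 0.29, limma adjusted p = 0.369). Without DDX17 KO replicate 2 it was 1.00 (limma adjusted p = 0.037). IFIH1, the MDA5 gene, which senses long double-stranded RNA, was at 0.7, 0.139 and 0.375 FPKM in controls, and at 0.415, 0.593 and 0.902 FPKM in DDX17 KO. The groups overlapped, and the log2 fold change of 0.23 (standard error 0.21, limma adjusted p = 0.584) stayed at 0.24 without DDX17 KO replicate 2. DHX58, the LGP2 gene, a regulator of the other sensors without signalling domains, lay below the filter at 0.14, 0.137 and 0.0238 FPKM in controls, and at 0.0815, 0.0971 and 0.169 FPKM in DDX17 KO.

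DDX60, a helicase induced by interferon and linked to RIG-I signalling, lies beside its paralogue DDX60L on chromosome 4 (chr4:168216293-168318807, minus strand). It was at 0.738, 0.462 and 0.625 FPKM in controls, and at 2.81, 0.85 and 2.82 FPKM in DDX17 KO, so all knockout libraries were above all controls and replicate 2 only just. The difference on the log2 scale was 0.90 (standard error 0.30, 95% confidence interval 0.21 to 1.59, limma adjusted p = 0.352), and 1.25 without DDX17 KO replicate 2 (adjusted p = 0.0264). DDX60L was at 0.959, 0.331 and 0.695 FPKM in controls, and at 1.7, 0.72 and 1.73 FPKM in DDX17 KO, with a log2 fold change of 0.51 (standard error 0.25, limma adjusted p = 0.384). Within each group the libraries had the same order in both paralogues, and the groups overlapped in DDX60L alone. DDX60L overlaps PALLD on the opposite strand, at a mean of 7.73 FPKM with a log2 fold change of -0.20. The strand setting is not given in the sources used here, so reads of overlapping genes cannot be told apart.

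MAVS, the adaptor through which both sensors signal, was at 7.12, 9.36 and 7.3 FPKM in controls, and at 7.04, 9.43 and 6.46 FPKM in DDX17 KO. It differed on the log2 scale by -0.05 (standard error 0.21, limma adjusted p = 0.903, 95% confidence interval -0.53 to 0.42), and both libraries numbered 2 were the highest of their group. EIF2AK2 encodes PKR, the kinase that halts translation on binding double-stranded RNA. It was at 6.92, 3.38 and 6.77 FPKM in controls, and at 12.9, 5.15 and 7.55 FPKM in DDX17 KO, with overlapping groups and a log2 fold change of 0.48 (standard error 0.36, limma adjusted p = 0.505) that was 0.07 after correction for GC content and length. ADAR, whose product edits adenosines in double-stranded RNA and keeps cellular RNA from triggering MDA5, was at 28.5, 21.9 and 29.4 FPKM in controls, and at 22.1, 27 and 27.5 FPKM in DDX17 KO. That difference was -0.05 on the log2 scale (standard error 0.20, limma adjusted p = 0.902), the interval reaching from -0.52 to 0.41. Single libraries moved ADAR and MAVS to either side of 0, from -0.18 to 0.05 and from -0.20 to 0.06 as each library was left out. GPATCH11, which overlaps EIF2AK2 on the opposite strand, had a mean of 4.99 FPKM and a log2 fold change of 0.74.

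None of the 4 tested transcription factors had an estimate above 0 on the deposited scale, although STAT2 and IRF3 were at 0.01 after GC and length correction, and 1 had groups that did not overlap. IRF9, the DNA-binding part of ISGF3, was at 0.824, 0.84 and 0.951 FPKM in controls, and at 0.669, 0.475 and 0.495 FPKM in DDX17 KO. All knockout libraries lay below all controls, the difference on the log2 scale was -0.28 (standard error 0.15, limma adjusted p = 0.415), and after GC and length correction it was -0.02. IRF9 shares a strand and locus with AL136295.5, at a mean of 2.56 FPKM and a log2 fold change of -0.05. STAT2, its partner, was at 4.38, 5.32 and 3.66 FPKM in controls, and at 3.81, 3.96 and 3.95 FPKM in DDX17 KO, a log2 fold change of -0.14 (standard error 0.18, limma adjusted p = 0.685). The knockout values of STAT2 sat inside the control range.

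IRF3, which the RNA sensors activate by phosphorylation, was at 2.53, 4.37 and 3.31 FPKM in controls, and at 2.57, 2.69 and 2.32 FPKM in DDX17 KO, with a log2 fold change of -0.30 (standard error 0.20, limma adjusted p = 0.469). IRF1, a factor induced by interferon gamma, was at 0.757, 1.15 and 0.794 FPKM in controls, and at 0.537, 0.485 and 0.821 FPKM in DDX17 KO, with a log2 fold change of -0.23 (standard error 0.17, limma adjusted p = 0.505). The corrected estimate of IRF1 was -0.09. IRF1 overlaps AC116366.3 on the opposite strand, listed at 0.456, 0.322 and 0.422 FPKM in controls against 6.25, 0.156 and 1 FPKM in DDX17 KO, an order that IRF1 did not share. IRF7, which amplifies interferon production once induced, lay below the filter. It was at 0.216, 0.168 and 0.168 FPKM in controls, and at 0.0313, 0.145 and 0.0811 FPKM in DDX17 KO, each knockout value below each control. In the shallowest library, 3 fragments of IRF7 make 0.273 FPKM, so these levels rest on very few fragments.

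The 4 IFIT genes, which form 1 cluster on chromosome 10, were all measured and all had estimates above 0. IFIT3 (chr10:89327894-89340971, plus strand), the member with the highest fold change, was at 1.11, 0.381 and 0.781 FPKM in controls, and at 3.21, 1.2 and 6.23 FPKM in DDX17 KO. Every knockout library was above every control, although replicate 2 exceeded control replicate 1 by little. The difference on the log2 scale was 1.23 (standard error 0.41, 95% confidence interval 0.28 to 2.18, limma adjusted p = 0.353), 1.67 without DDX17 KO replicate 2 (adjusted p = 0.0403) and 1.19 after GC and length correction (adjusted p = 0.242). IFIT2 was at 1.47, 0.977 and 1.69 FPKM in controls, and at 4.23, 1.19 and 5.23 FPKM in DDX17 KO. Here replicates 1 and 3 were above all controls and replicate 2 within them, with a log2 fold change of 0.81 (standard error 0.38, limma adjusted p = 0.375) and 1.27 without DDX17 KO replicate 2 (adjusted p = 0.0343).

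IFIT5, at 8.9, 6.41 and 9.48 FPKM in controls, and at 12.2, 8.29 and 12.6 FPKM in DDX17 KO, had the highest level of the family. It differed on the log2 scale by 0.37 (standard error 0.23, limma adjusted p = 0.447), and 0.15 after GC and length correction. IFIT1, which recognises RNA caps that lack methylation, was at 1.22, 1.11 and 1.36 FPKM in controls, and at 1.67, 1.03 and 2.33 FPKM in DDX17 KO, with a log2 fold change of 0.24 (standard error 0.21, limma adjusted p = 0.576). The family therefore held both the highest estimate of the list and members near the level of all genes of like GC content. IFIT1, IFIT2 and IFIT3 overlap LIPA on the opposite strand, which had a mean of 13.6 FPKM and a log2 fold change of 0.15. IFIT2 shares a strand with AL353751.1, listed at 24.4, 21.7 and 19.9 FPKM in controls, and at 44.8, 19.6 and 51.3 FPKM in DDX17 KO, the knockout libraries in the same order as for IFIT2, and how reads were divided between that pair is not given in the sources used here.

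Among the OAS genes, which make the second messenger that activates RNase L, OASL differed from OAS1 and OAS3 in its values. OASL (chr12:121019111-121039242, minus strand), a family member without synthetase activity that enhances RIG-I signalling, was at 0.546, 0.943 and 0.926 FPKM in controls, and at 2.37, 1.29 and 2.26 FPKM in DDX17 KO. All knockout libraries were above all controls, with a log2 fold change of 0.71 (standard error 0.21, 95% confidence interval 0.22 to 1.20, limma adjusted p = 0.329). It was 0.88 without DDX17 KO replicate 2 (limma adjusted p = 0.0474) and 0.89 after GC and length correction (adjusted p = 0.222). OAS1 was at 5.14, 5.33 and 5.27 FPKM in controls, and at 5.62, 5.82 and 5.32 FPKM in DDX17 KO, a log2 fold change of 0.08 (95% confidence interval -0.29 to 0.44). OAS3 had a log2 fold change of -0.23 (95% confidence interval -0.69 to 0.24) with levels of 6.57, 7.72 and 6.99 FPKM in controls against 7.64, 5.35 and 4.97 FPKM in DDX17 KO. The differences between OASL and its relatives were not tested. OAS2, between 0 and 0.0882 FPKM, and the exonuclease gene ISG20, between 0.222 and 0.588 FPKM, lay below the filter.

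SAMD9 was the only tested gene among MX1, MX2, RSAD2, SAMD9 and SAMD9L, whose products restrict viral replication. It was at 1.65, 0.967 and 1.26 FPKM in controls, and at 3.28, 0.913 and 4 FPKM in DDX17 KO, so replicates 1 and 3 were above all controls and replicate 2 below them. The difference on the log2 scale was 0.60 (standard error 0.36, limma adjusted p = 0.434), 1.02 without DDX17 KO replicate 2 (adjusted p = 0.0453) and 0.27 after GC and length correction. Its neighbour SAMD9L was at 0.0202, 0.0431 and 0.0171 FPKM in controls, and at 0.249, 0.0746 and 0.347 FPKM in DDX17 KO. RSAD2, the viperin gene, was listed at 0 in all controls and at 0.0168, 0.0666 and 0.0868 FPKM in DDX17 KO. MX2 was at most 0.00434 FPKM in controls and 0.022 to 0.0284 FPKM in DDX17 KO. All 3 had every knockout library above every control, but 3 fragments in the shallowest library make 0.0786, 0.159 and 0.138 FPKM for SAMD9L, RSAD2 and MX2, so no fold change is given. Of the other members below the filter, IFI27 also lay above every control, and IRF7 and UBE2L6 lay below every control. The share of all genes below the filter with such a separation was not counted. MX1, a widely used marker of the interferon response, was at 0.0267 to 0.0905 FPKM in controls and 0.0308 to 0.139 FPKM in DDX17 KO, with overlapping groups.

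Of the ISG15 system, in which ISG15 is joined to target proteins by UBE2L6 and HERC5 and removed by USP18, the modifier and ligase lay above 0 and the protease below. ISG15 was at 2.78, 4.48 and 3.09 FPKM in controls, and at 5.55, 3.61 and 5.59 FPKM in DDX17 KO, with a log2 fold change of 0.41 (standard error 0.23, limma adjusted p = 0.415). Its libraries numbered 2 went the other way, with the control at 4.48 FPKM above DDX17 KO at 3.61 FPKM. Without that pair the difference on the log2 scale was 0.74 (limma adjusted p = 0.0396). HERC5 was at 2.68, 1.6 and 3.11 FPKM in controls, and at 5.08, 1.98 and 4.43 FPKM in DDX17 KO, with a log2 fold change of 0.44 (standard error 0.31, limma adjusted p = 0.491). USP18, which also damps interferon receptor signalling, was at 6.09, 7.7 and 5.91 FPKM in controls, and at 2.39, 6.85 and 4.41 FPKM in DDX17 KO. It differed on the log2 scale by -0.52 (standard error 0.31, limma adjusted p = 0.43), with replicates 1 and 3 below all controls and replicate 2 among them. The USP18 estimate was -0.33 after GC and length correction and ranged from -0.81 without DDX17 KO replicate 2 to -0.21 without DDX17 KO replicate 1, and that of HERC5 ranged from 0.24 to 0.76 as each library was left out. HERC6 lay just below the filter, at 0.464, 0.206 and 0.502 FPKM in controls, and at 0.748, 0.277 and 0.619 FPKM in DDX17 KO. UBE2L6 was between 0.0641 and 0.181 FPKM in controls and at most 0.0321 FPKM in DDX17 KO.

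Of the membrane proteins, BST2 and IFITM3 had the highest mean levels of the list, and none of the 3 tested had an estimate above 0. IFITM3 (chr11:319669-327537, minus strand), which blocks fusion of enveloped viruses in endosomes, was at 58.5, 73.5 and 64.2 FPKM in controls, and at 36.4, 32.6 and 47.3 FPKM in DDX17 KO. Every knockout library was below every control, replicate 2 included. The difference on the log2 scale was -0.75 (standard error 0.21, 95% confidence interval -1.24 to -0.26, limma adjusted p = 0.314), and it ranged from -0.90 to -0.64 as each library was left out. BST2, or tetherin, which holds budding virus at the cell surface, was at 203, 258 and 203 FPKM in controls, and at 214, 188 and 156 FPKM in DDX17 KO, with a log2 fold change of -0.25 (standard error 0.21, limma adjusted p = 0.548). IFITM2 was at 11.7, 14.4 and 14.7 FPKM in controls, and at 7.88, 9.6 and 15.2 FPKM in DDX17 KO, a log2 fold change of -0.33 (standard error 0.26, limma adjusted p = 0.517). Groups of BST2 and IFITM2 overlapped, and after GC and length correction the estimates were -0.03 for BST2 and -0.16 for IFITM2. As each library was left out they ranged from -0.36 to -0.13 for BST2 and from -0.58 to -0.15 for IFITM2. IFITM1, at 0.173 to 0.526 FPKM, was below the filter. The IFITM genes are close copies of each other, and the loci of IFITM1 and IFITM2 overlap on 1 strand, so the division of reads between them is uncertain.

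Among the remaining induced genes, IFI44 had groups that did not overlap and IFI6 had an estimate near 0. IFI44 (chr1:78649796-78664078, plus strand), a cytoplasmic protein induced by type I interferon, was at 0.262, 0.0774 and 0.37 FPKM in controls, and at 1.44, 0.603 and 1.93 FPKM in DDX17 KO. All knockout libraries were above all controls, with a log2 fold change of 0.88 (standard error 0.25, 95% confidence interval 0.30 to 1.45, limma adjusted p = 0.318), 1.12 without DDX17 KO replicate 2 (adjusted p = 0.0353) and 0.68 after GC and length correction. In the shallowest library, DDX17 KO replicate 2, 3 fragments make 0.332 FPKM for IFI44 and 0.667 FPKM for IFI6. The IFI44 value of 0.603 FPKM there thus rests on few fragments. IFI44L, the neighbour of IFI44, was listed at 0 in 5 libraries. IFI6, a mitochondrial and membrane protein that is often strongly induced by interferon, was at 0.837, 1.13 and 0.878 FPKM in controls, and at 0.879, 1.01 and 0.958 FPKM in DDX17 KO, with a log2 fold change of 0.00 (95% confidence interval -0.36 to 0.37). IFI35 had a log2 fold change of -0.35 (limma adjusted p = 0.469) and PARP9, an ADP-ribosyltransferase partner of DTX3L, 0.17 (adjusted p = 0.756). IFI27 was at 0.0344 to 0.0486 FPKM in controls and 0.0793 to 0.106 FPKM in DDX17 KO. PARP14 reached 1.46 FPKM in DDX17 KO replicate 3 alone and was at most 0.38 FPKM elsewhere, and XAF1 was listed at 0 in 5 libraries.

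**Figure D3:**
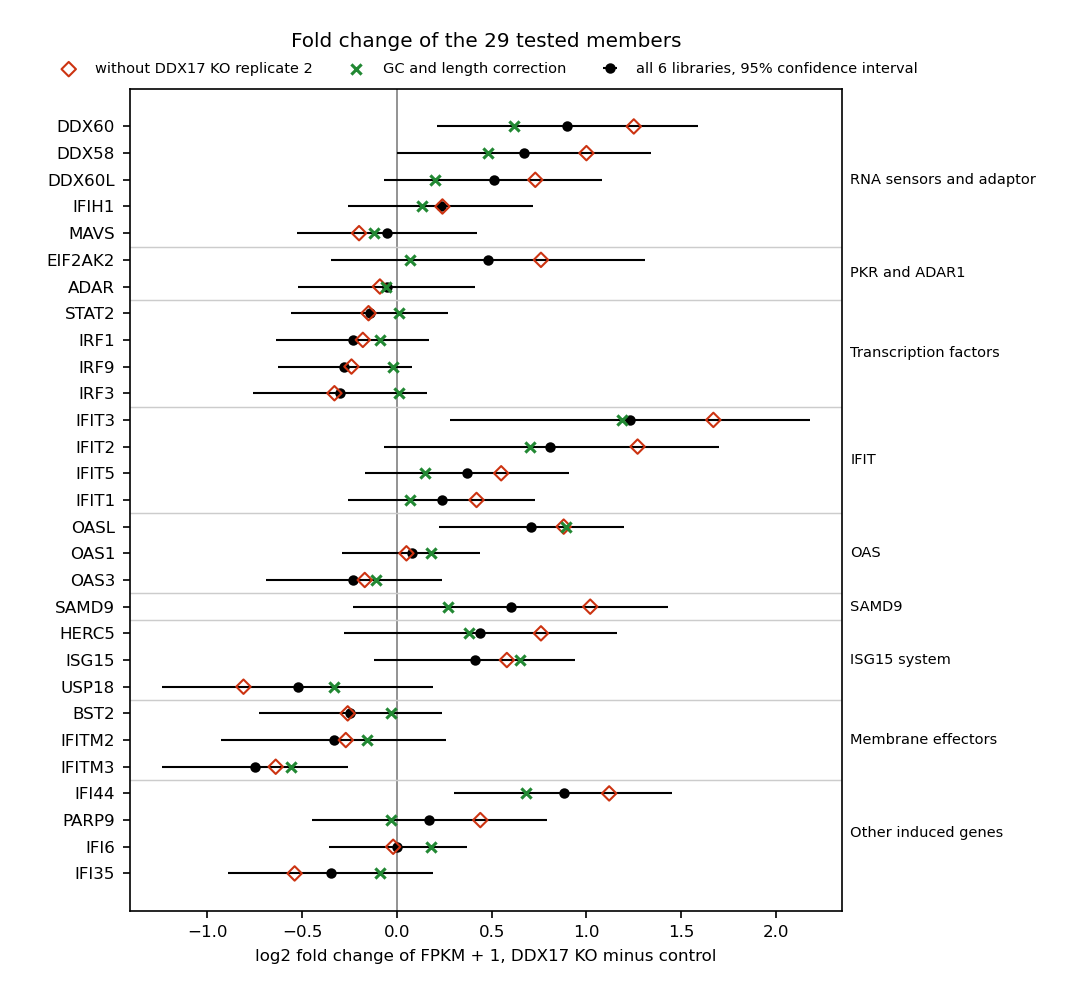
Log2 fold change of FPKM + 1 for the 29 tested members, DDX17 KO minus control, with all 6 libraries (black, 95% confidence interval), without DDX17 KO replicate 2 (red diamonds) and after GC and length correction (green crosses). The interval lies above 0 for IFIT3, DDX60, IFI44 and OASL and touches it for DDX58, it lies below 0 for IFITM3, and the correction brings DDX60L and EIF2AK2 toward 0 while IFIT3, OASL and ISG15 keep their size or gain.

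The members' fold changes followed the GC content of their transcripts, as did those of all genes. Among the 13 tested members with under 45% GC, all 13 estimates were above 0 with a median log2 fold change of 0.51, where 73.2% of all 6065 such genes were above 0 with a median of 0.22. DDX58, IFIH1 and IFI44 are among these 13 and passed the level filter only through their knockout libraries. The direction of their estimates was therefore in part set by the filter. Among the 16 members at 45% or more, 4 estimates were above 0 with a median of -0.23, where 31.1% of 9499 such genes were, with a median of -0.16. The value of 45% was chosen after the values were seen. Across genes, which are not replicates and share these 6 libraries, the Pearson correlation of GC content with log2 fold change was -0.69 over the 29 members and -0.45 over 15564 genes. When the deviation by GC content and length was removed from each library, the median of the 13 members of low GC content was 0.27 and that of all such genes -0.00. The Pearson correlation was then -0.37 over the 29 members and -0.00 over 15564 genes, so part of the relation remained among the members. In that fit no member passed, where 11 genes of all those fitted, 0.0707%, did. OASL and ISG15, at 51.4% and 63.4% GC, lay above the upper quartile of genes of like composition, and the corrected log2 fold change of ISG15 was 0.65 (limma adjusted p = 0.324). IFITM3, at 56.9% GC, kept -0.56 (limma adjusted p = 0.335).

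**Figure D4:**
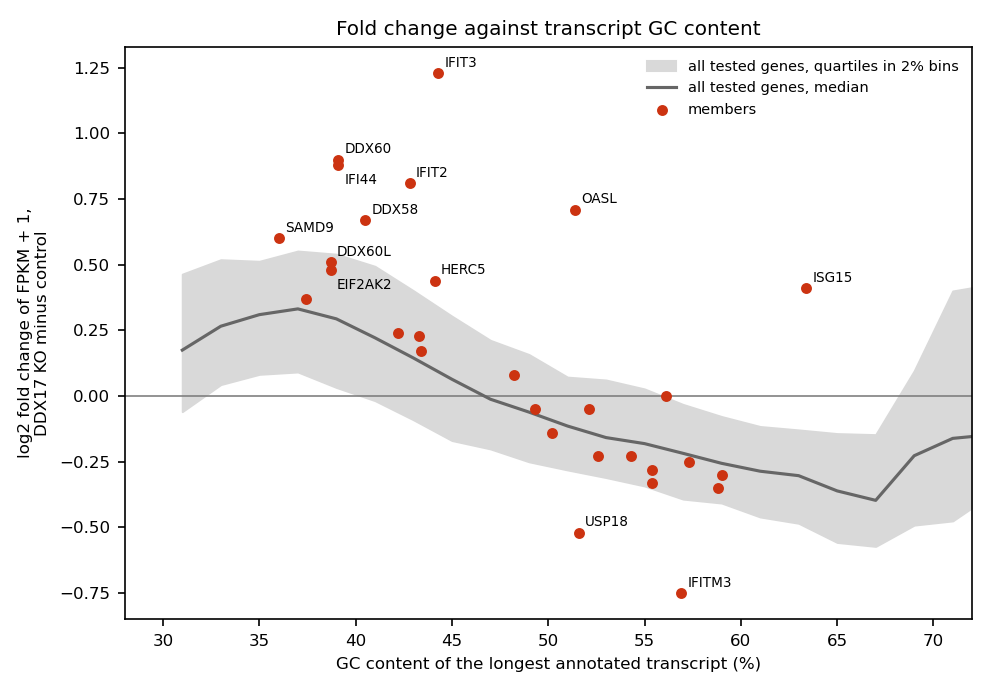
Log2 fold change of FPKM + 1, DDX17 KO minus control, against the GC percent of the longest annotated transcript for the 29 tested members (red), over the median (line) and quartiles (grey) of all tested genes in bins of 2 percentage points with at least 20 genes. The line is above 0 at low GC content and below 0 at high GC content, many members lie inside the band, IFIT3, DDX60, IFI44, OASL and ISG15 are among those above it, and IFITM3 and USP18 lie below it.

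Ligands, receptors and signalling genes that are not on the member list were taken from a further list of 59 interferon pathway genes. None of its 34 tested genes passed with all 6 libraries, where 0.0384% of all genes did. The estimate was above 0 for 13 of them, 38.2%, against 47.5% of all genes, and below 0 for 21, and the median log2 fold change was -0.10 against -0.03. Of the ligands, IFNB1, IFNK, IFNL1, IFNL2 and IFNL3 were listed at 0 in every library, and IFNA1 and IFNA2 were above 0 in DDX17 KO replicate 3 alone, at 0.141 and 0.107 FPKM. IFNG was listed at 0 in all controls and at 0.0773, 0.153 and 0 FPKM in DDX17 KO. IFNE, an epithelial type I interferon below the filter, was at 0.165, 0 and 0.0932 FPKM in controls, and at 1.02, 0.633 and 0.578 FPKM in DDX17 KO, every knockout library above every control. In the shallowest library 3 fragments of IFNE make 0.38 FPKM, so these values rest on few fragments. The share of genes below the filter with such a separation was not counted. The receptor chains went apart in their estimates. IFNAR1 was at 10.6, 5.37 and 10.9 FPKM in controls, and at 17.1, 6.22 and 16.8 FPKM in DDX17 KO, a log2 fold change of 0.47 (standard error 0.41, limma adjusted p = 0.57). IFNAR2 was at 4.36, 5.25 and 4.72 FPKM in controls, and at 2.7, 2.23 and 4.67 FPKM in DDX17 KO, a log2 fold change of -0.50 (standard error 0.24, limma adjusted p = 0.378), and both chains had overlapping groups.

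Of the kinases that the receptors use, JAK1 had a log2 fold change of 0.25 (limma adjusted p = 0.658) with levels of 30.5, 19.9 and 31.1 FPKM in controls against 36.9, 22.1 and 39.6 FPKM in DDX17 KO. TYK2 was at 6.67, 8.79 and 6.87 FPKM in controls, and at 4.71, 5.78 and 3.7 FPKM in DDX17 KO, below every control, with a log2 fold change of -0.57 (standard error 0.21, limma adjusted p = 0.366). In JAK1 the libraries numbered 2 were the lowest of both groups. Among the 34 tested genes, groups did not overlap for 2 above the controls (PIAS1 and IFI16) and 9 below, where 8.09% and 12.6% of all genes were so. The largest such estimates were those of LGALS3BP (-0.84), IL10RB, a receptor chain for interferon lambda (-0.67), PIAS1, an inhibitor of STAT signalling (0.64), the DNA sensor gene CGAS (-0.59), IKBKE (-0.58) and TYK2, with limma adjusted p from 0.303 to 0.369. GC and length correction changed that order, to -0.84 for IL10RB, -0.67 for CGAS, -0.52 for LGALS3BP, 0.32 for PIAS1, -0.29 for IKBKE and -0.28 for TYK2. LGALS3BP, a secreted glycoprotein, was at 11.7, 15.4 and 14.1 FPKM in controls, and at 8.74, 7.91 and 5.29 FPKM in DDX17 KO. CGAS was at 6.59, 8.86 and 6.25 FPKM in controls, and at 4.53, 4.08 and 4.6 FPKM in DDX17 KO. Without DDX17 KO replicate 2 no gene of the list was called, where 1.95% of all genes were called higher and 1.72% lower. With both libraries numbered 2 left out, an alternative added after seeing the data, 4 genes of the list, IFNAR1, TBK1, JAK2 and ZC3HAV1, were called higher and none lower, where 5.51% and 3.30% of all genes were. The antigen-presentation genes PSMB8, PSMB9 and TAP1 were listed at 0 in all 6 libraries.

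Markers of other cells were looked at because leukocytes carry interferon genes of their own. The summed FPKM of 12 leukocyte markers was 1.4 to 2.02 in controls and 2.28 to 3.63 in DDX17 KO, and CD68, also found in lysosomes of other cells, made up most of it, at 1.26 to 1.64 and 2.07 to 3.3 FPKM. CD3D, CD3E, HLA-DRA and TYROBP were listed at 0 in all 6 libraries. The monocyte marker CD14 was above 0 in all of them, at 0.0178 to 0.231 FPKM in controls and 0.145 to 0.316 FPKM in DDX17 KO, and ITGB2 was above 0 in 5, at up to 0.073 FPKM. PTPRC, the pan-leukocyte marker CD45, was at 0.0151 FPKM in control replicate 2 and listed at 0 elsewhere. The summed FPKM of 6 red-cell markers was 54 to 69.6 in controls and 0.0211 to 0.673 in DDX17 KO, with HBA1, HBA2 and HBB at 13.8 FPKM or more in every control. The sum of 7 stromal markers was 16.9 to 19.4 in controls and 8.5 to 21.9 in DDX17 KO. The part of these differences in the values of the interferon genes was not tested.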

How the data were processed

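Total RNA of 6 libraries was compared, grouped and numbered by their titles. Gene levels were deposited by the authors as FPKM in 1 table. Build hg38 and the tools StringTie, HISAT2, edgeR and CASAVA 1.8 are named by the submitters' processing notes, with no role for any of them. For the counting rule, annotation release and strand setting the sources used here give nothing. Estimated fragments per library came from the steps of low FPKM values, 99.4% to 99.7% of which were whole within 0.05.

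Values were put on the log2(FPKM + 1) scale, which makes changes of low genes look smaller, and fitted with limma (version 3.58.1, R 4.3.3, trend on, two-sided tests). Genes averaging at least 0.5 FPKM, 15620 in all, were fitted, with Benjamini-Hochberg adjustment over them. The scripts were in R and in Python 3.11.15 (pandas 2.3.3), and of these only the limma fit was tested on simulated data. GC content, lengths and overlaps came from GENCODE annotation on hg38, and promoters from RefSeq (GRCh38.p14). Deviation by GC content and length was removed by splines with 4 degrees of freedom. The other alternatives were a replicate block, pseudocount 0.1, median-of-ratios scaling, no filter, a filter of 2 FPKM, no trend, each library left out and, added after seeing the data, both libraries numbered 2 left out.

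Members and lists were chosen with earlier results of these data known. The rule gives values in every library for members past the threshold, those whose groups do not overlap, the 6 highest, the sensors, PKR, ADAR and the factors, and from the pathway list for the 6 largest estimates without overlap and core signalling genes, of which 1 is not reported here. Other members and pathway genes named with values (among them IFIT1, IFIT2, DDX60L, SAMD9, ISG15, HERC5, USP18, OAS1, OAS3, IFI6 and IFNE) were added after their values were seen.

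Same-numbered libraries deviated together from their group means (correlations 0.3, 0.546 and 0.214, and 0.155, 0.347 and 0.114 after GC correction). The pairing rests on these data and not on the labels, and control replicate 1 was as close to DDX17 KO replicate 3 (0.329).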

Additional observations from a re-analysis of the deposited data

How the results depend on the processing

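The number of genes called over the whole table, 6, was 3 with no filter on low values, 11 with GC and length correction, 1376 with both libraries numbered 2 left out, an alternative added after seeing the data, and 3 to 572 as each library was left out. Members called numbered 0, but 7 with both libraries numbered 2 left out and 0 to 7 as each library was left out, the 7 without DDX17 KO replicate 2. The members' median of 0.17 was -0.05 with a mean of at least 2 FPKM, where fewer genes are tested, 0.05 with no filter and 0.07 with GC and length correction. It was 0.06 without DDX17 KO replicate 3, 0.07 without DDX17 KO replicate 1, 0.09 without control replicate 2, 0.10 without both libraries numbered 2 and at most 0.24 as each library was left out. DDX17 was called with both libraries numbered 2 left out, at -1.08 on the log2 scale, and it ranged from -1.76 to -1.04 as each library was left out, called without DDX17 KO replicate 2. With the replicate number as a block, 4 genes were called over the table and no member, the median was 0.17, and the adjusted p of DDX17 was 0.0718, so the replicate block changed no member's call. Of 424 member values under 15 alternatives, 395 kept direction and side of the threshold, 14 passed it, and 15, in 6 members, changed sign. With GC and length correction, with or without the block, STAT2 and IRF3 were 0.01 and PARP9 was -0.03. As each library was left out, IFI6 ranged from -0.04 to 0.07, ADAR from -0.18 to 0.05 and MAVS from -0.20 to 0.06. The cause of these changes was not tested beyond the values given. Depth limits the low members: 3 fragments in the shallowest library make 0.0479 FPKM for MAVS and 0.713 FPKM for ISG15, which covers counting error only.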
